A study of Mus musculus with 14 samples.

Results

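The primary cilium is a single antenna-like projection of the cell surface, and the genes described here encode the machinery that builds it and controls what enters it. The set holds 56 genes of the 24454 in the count table: the subunits of the intraflagellar transport (IFT) trains and their motors, the proteins of the transition zone at the cilium base, the BBSome and its helpers, the planar polarity effectors, and a few cilium proteins that act on hedgehog signalling. The members were chosen as a functional module, with earlier results of these data known, and each was found in the table by its Entrez identifier. The study asked how mesenchymal progenitors of the early mouse forelimb bud differ in their transcriptomes, and sorted 5 populations by flow cytometry for RNA-seq.

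All populations came from mouse embryos that carry a Sox9 IRES-EGFP allele, so that green fluorescence (S9+ or S9-) reports Sox9, the transcription factor of cartilage progenitors. Dead cells and cells positive for CD31, Ter119, CD45, EpCAM, Gr1 or CD11b were gated out, which removes endothelium, blood and ectoderm. S9-JAG1+ limb bud mesenchymal progenitors (LMPs; 3 libraries) carry the Notch ligand JAG1 on their surface, and S9-Pαhi LMPs (3 libraries) have high levels of the receptor PDGFRα. S9+Pαhi osteo-chondrogenic progenitors (OCPs; 3 libraries) express Sox9 in addition. S9-SCA-1+ cells (2 libraries, replicates 2 and 3) were sorted for the surface antigen SCA-1. These 4 populations were taken at embryonic stage E10.5, whereas S9+PαhiCol2a1+ chondroblasts (3 libraries), the early cartilage cells, were taken at E11.5. Stage and cell type therefore cannot be told apart in any comparison with the chondroblasts. Each library came from a pool of forelimb buds, so p-values measure the spread between pools. The tests took the libraries as independent, and the labels do not say whether populations were sorted from a shared pool.

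In a cilium, IFT-B trains pulled by kinesin-2 carry cargo towards the tip, and IFT-A trains pulled by cytoplasmic dynein 2 return it to the base. The BBSome rides on the trains and carries membrane proteins out of the cilium, while the transition zone forms a gate between cilium and cytoplasm. Vertebrate hedgehog signalling, which patterns the limb bud, runs through this organelle: SMO enters the cilium on activation and the GLI factors are processed there. Mutations of many of these genes cause ciliopathies, several with extra digits and short ribs or limbs.

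RFX transcription factors bind the X-box, an inverted repeat that is common in cilium gene promoters. In RefSeq promoters of the GRCm38.p6 build, which span 250 bases before to 50 bases after the start of transcription, 52 of the 56 members had an entry. A full X-box was searched on both strands as GTNNCC, a spacer of 1 to 3 bases, and GGNNAC, and was found for 14 of these 52 members (26.9%). The same letters were found for 4.00% of all 27025 genes with an entry and for 4.96% of the 11743 of them that were tested here. The half-site GTTGCC, which can lie within a full match, was present for 25 of 52 members (48.1%) against 14.1% of all genes with an entry. The stretches below lie wholly upstream of the start site of their promoter entry and are printed for members of 5 classes (IFT-B for Ift57 and Ttc26, IFT-A for Wdr19, the BBSome for Bbs7, the transition zone for Tctn2 and Nphp4, the planar polarity effectors for Intu). Values of all of these except Tctn2 are described further on. Mks1 and Tctn3 also had a full match wholly upstream, and their stretches are not printed. The printed stretches read 5′ to 3′ on the strand of the gene, and the capitals mark full matches, of which the Ift57 stretch holds 2 and the others 1 each. The start sites of the entries used for Ttc26, Bbs7, Nphp4 and Intu differ from the outermost start of the gene in the RefSeq gene table, so these stretches lie partly or wholly inside the gene as given there.
Ift57 promoter, chr16:49699199-49699288, plus strand: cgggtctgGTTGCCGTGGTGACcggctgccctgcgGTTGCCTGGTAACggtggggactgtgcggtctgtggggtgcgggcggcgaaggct
Ttc26 promoter, chr6:38381434-38381523, plus strand: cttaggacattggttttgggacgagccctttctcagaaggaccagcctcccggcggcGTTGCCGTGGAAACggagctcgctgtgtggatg
Wdr19 promoter, chr5:65199606-65199695, plus strand: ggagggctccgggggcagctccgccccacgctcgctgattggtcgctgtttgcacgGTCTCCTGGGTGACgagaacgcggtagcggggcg
Bbs7 promoter, chr3:36613456-36613545, minus strand: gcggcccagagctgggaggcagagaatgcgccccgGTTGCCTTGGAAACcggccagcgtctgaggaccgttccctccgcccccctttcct
Tctn2 promoter, chr5:124598652-124598741, plus strand: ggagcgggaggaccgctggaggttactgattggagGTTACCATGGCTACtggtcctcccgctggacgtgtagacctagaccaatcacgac
Nphp4 promoter, chr4:152477892-152477981, plus strand: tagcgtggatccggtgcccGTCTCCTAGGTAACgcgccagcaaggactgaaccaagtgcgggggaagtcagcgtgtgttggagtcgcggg
Intu promoter, chr3:40540677-40540766, plus strand: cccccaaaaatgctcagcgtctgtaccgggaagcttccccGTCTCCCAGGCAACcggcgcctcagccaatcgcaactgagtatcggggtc
A match is a run of letters and not a measured binding site. The other 7 members with a full match were Bbs1, Bbs4, Mks1, Tctn1, Tctn3, Tmem216 and Tmem231.

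The libraries held 20316583 to 29162751 counts each, and all 56 members were among the 15125 genes that passed the filter on low counts. The sorted populations carried their markers. Sox9 reached 411 to 625 CPM (read counts scaled to a common library size with TMM factors) in OCPs and chondroblasts and at most 65.5 elsewhere, and Jag1 reached 228 to 364 CPM in S9-JAG1+ LMPs and at most 137 elsewhere. The S9-SCA-1+ libraries had 428 and 498 CPM of Pax3, a factor of migrating muscle precursors that stayed at or below 1.39 CPM in all other libraries. Ly6a, which encodes SCA-1, was at 3.36 and 3.10 CPM there and at most 0.406 elsewhere. The summed CPM of 5 red blood cell genes was 2501 in S9-SCA-1+ replicate 3 against 86.9 in replicate 2 and 2.38 to 55.3 in the other libraries. The summed CPM of 5 leukocyte markers stayed below 1 in all libraries and was 0.385 and 0.926 in the S9-SCA-1+ cells against 0 to 0.411 elsewhere. The sum of 5 endothelial markers was 10.9 and 15.1 CPM in the S9-SCA-1+ cells and 2.46 to 10.46 elsewhere. Of these 5, Kdr (log2 fold change 3.12) and Tek (0.89) were higher in S9-SCA-1+ cells, and Pecam1, Cdh5 and Emcn did not pass. The sum of 5 neural crest and glia markers was 21.1 to 29.2 CPM in chondroblasts, 9.61 to 21.4 in OCPs and 3.90 to 8.01 in the other populations. All 5 were higher in chondroblasts (median log2 fold change 2.37) and 4 of 5 in OCPs (median 1.74), with Sox10 at 1.87 to 3.99 CPM in these populations and at most 0.178 elsewhere. Of 6 ectoderm markers 3 passed the filter on low counts, of which 2 were higher in chondroblasts and 1 in OCPs. The part of these other cell types in the members' values was not tested. OCP replicate 2 stood apart from the other OCP libraries in a way that went with transcript length. Its median log2 difference from them was -0.17 for genes with under 2 kb of exon and 0.11 for those with over 4 kb. Among the members, 18 of the 23 with over 4 kb of exon were above both other OCP libraries there, and 10 of the 13 under 2 kb were below both. Of the 20 members with 2 to 4 kb, 11 were above both and 8 below both. The members' median differences were -0.33 under 2 kb, 0.23 at 2 to 4 kb and 0.32 over 4 kb, and all genes had 0.01 at 2 to 4 kb. The members thus differed by more than all genes of like length.

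The cilium genes were expressed at moderate, even levels in all 5 populations. No member was absent from any library. On the scale of CPM per kilobase of exon, averaged over the populations, Arl3, a small GTPase that unloads lipid-modified cargo inside the cilium, had the highest level at 60.9. It was followed by Ift20 (29.98), the IFT-B subunit that is also found at the Golgi, and Ift74 (28.7), part of the tubulin-binding module of IFT-B. The lowest levels were those of Nphp4 (2.36), a transition zone protein, Wdpcp (2.11), a planar polarity effector, and Bbs10 (2.02), a chaperonin-like protein that helps assemble the BBSome. Levels between genes spanned a far wider range than those of any 1 gene between populations.

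**Figure D1:**
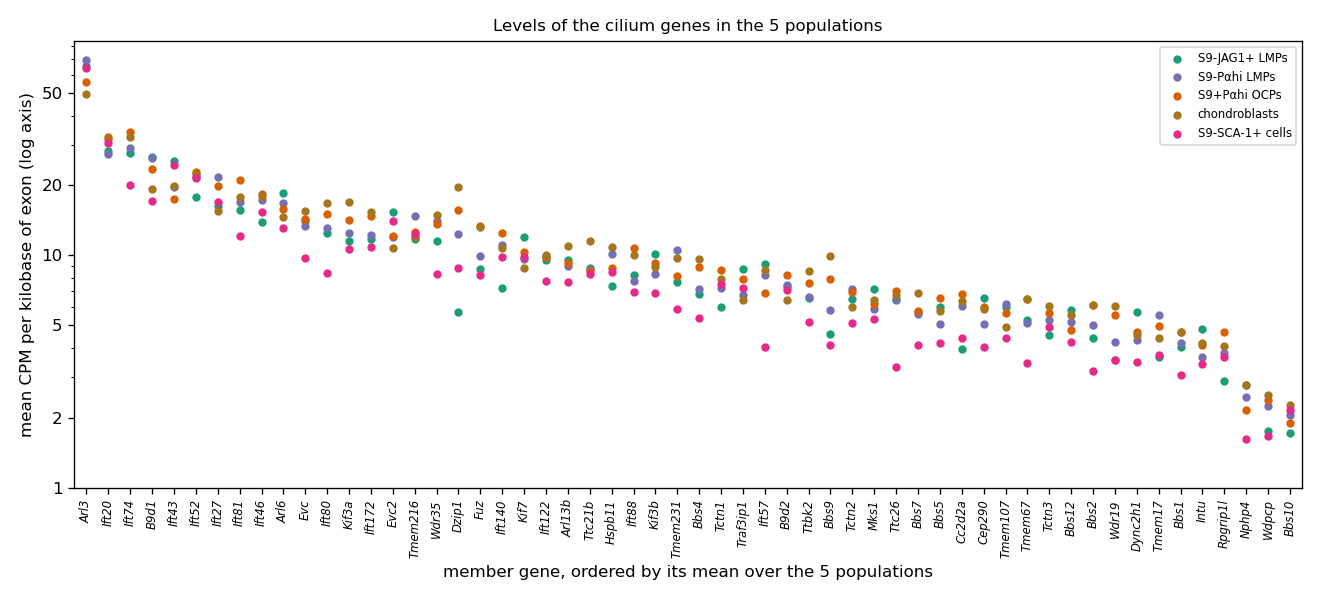
Mean CPM per kilobase of exon (log axis) of each of the 56 cilium genes in each of the 5 populations, ordered by the mean over the populations. Levels fell from 60.9 for Arl3 to 2.02 for Bbs10, and the points of the S9-SCA-1+ cells were the lowest of the 5 for 36 of 56 genes.

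Between the 5 populations the shifts were small but widespread. In a joint test of any difference, 52 of 56 members changed (edgeR's quasi-likelihood test, adjusted by Benjamini-Hochberg over all 15125 genes, with 0.1 as the limit on the adjusted p), where 74.8% of all tested genes did. The members that did not pass were the transition zone genes B9d2, Tmem107 and Tmem216 and the chaperonin gene Bbs10. The median distance between a member's highest and lowest population was 0.60 on the log2 scale, against 0.75 over all tested genes. The study's methods set an additional limit of 1.2 on a log2 fold change. Put on this distance, only Dzip1 (1.78) and Bbs9 (1.27) passed it, as did 29.2% of all genes. The distance is that between the most different populations and is not the log2 fold change of a comparison set beforehand. The narrowest distances were those of Ift20 (0.24), B9d2, Tmem216 and Ift52. In bulk libraries such as these, fewer cells with a transcript and less of it per cell cannot be told apart.

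The direction of the shifts was uneven across populations. The S9-SCA-1+ cells had the lowest mean for 36 of 56 members (64.3%), where they had the lowest mean for 25.3% of all tested genes, and the highest mean for none, where they had it for 24.4% of all. The chondroblasts had the highest mean for 23 members (41.1%, against 32.5% of all genes), the S9-JAG1+ LMPs for 13 (23.2% against 21.5%), the OCPs for 13 (23.2% against 13.0%) and the S9-Pαhi LMPs for 7 (12.5% against 8.53%). Seen by library, the median member lay 0.28 and 0.29 below its mean over the populations (log2 CPM) in the S9-SCA-1+ libraries, and 48 and 49 of the 56 members were below it. It lay 0.09, 0.27 and 0.09 above it in the OCP libraries and 0.11, 0.19 and 0.18 above it in the chondroblast libraries. In the LMP libraries it lay between -0.07 and 0.03. Over all tested genes the same medians lay between -0.01 and 0.04.

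**Figure D2:**
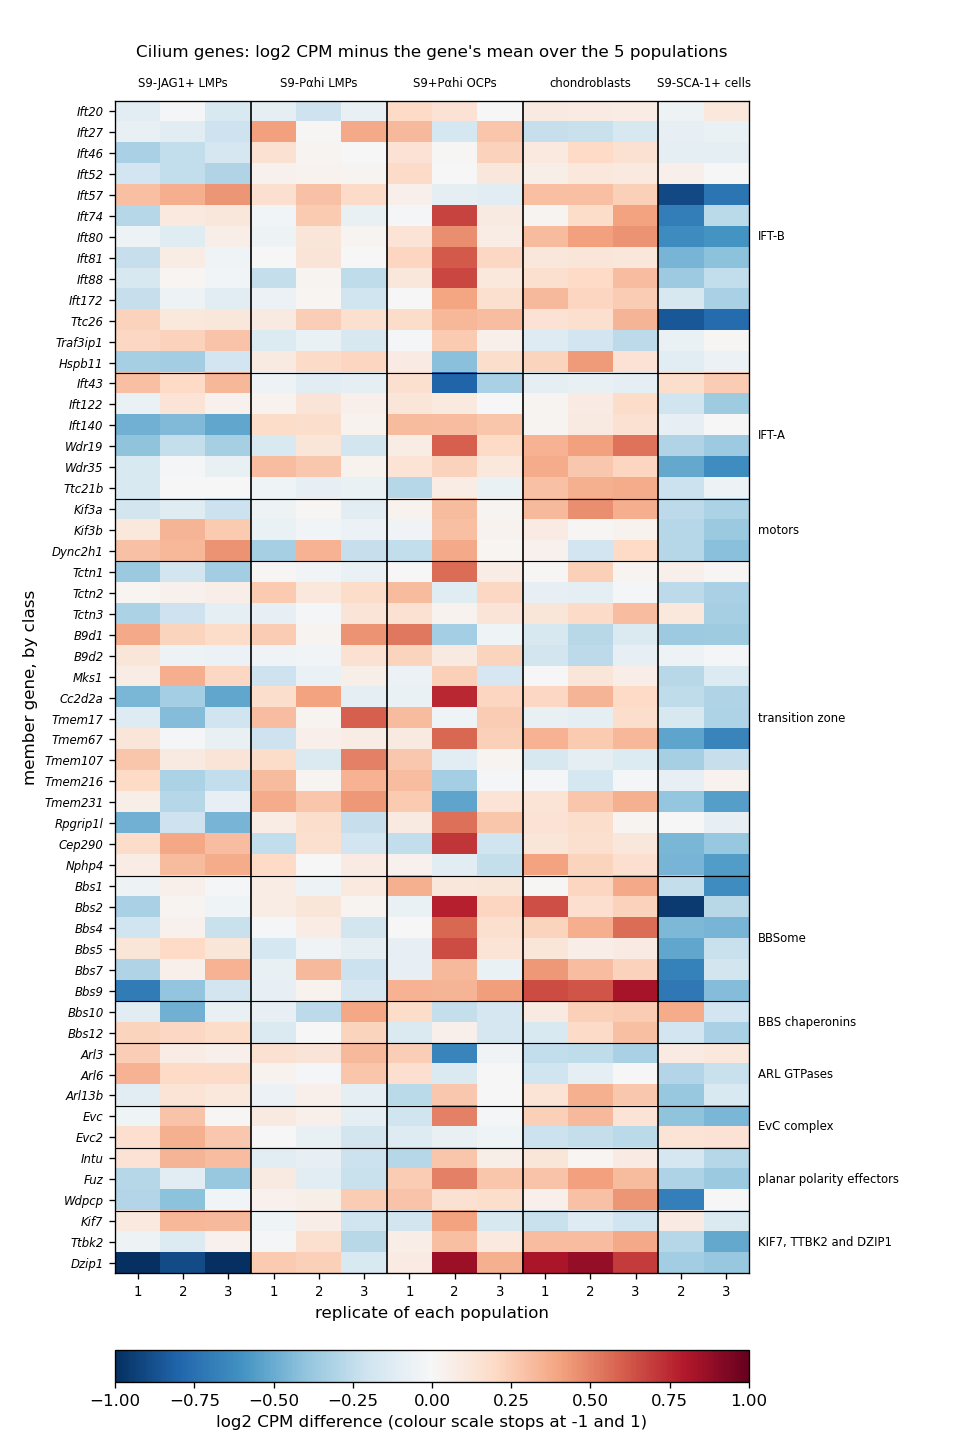
Log2 CPM of each cilium gene (rows, grouped by class) in each of the 14 libraries (columns, grouped by population) minus the gene's mean over the 5 populations; red is higher and blue is lower. Both S9-SCA-1+ columns are blue for most rows (48 and 49 of 56 genes below the mean), the chondroblast columns are mostly red, and Dzip1 in the bottom row is the darkest blue in the S9-JAG1+ columns.

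Each population was then compared with the mean of the other 4, using the same 14 libraries, so these comparisons share samples with each other. In S9-SCA-1+ cells 37 members were lower and 1 was higher, where 46.4% of all tested genes passed, 22.8% lower and 23.5% higher. The median log2 fold change of the members was -0.36, against -0.01 for all genes. In 21 members (37.5%) both S9-SCA-1+ libraries lay below all 12 others, which was so for 10.1% of all tested genes, and in no member did both lie above all others, which was so for 10.8%. The member that rose, Evc2, did so by 0.18 on the log2 scale, and this did not pass without either S9-SCA-1+ library or with scaling by library totals. With either S9-SCA-1+ library left out fewer members passed, and the remaining library was then assumed to vary like the other groups. Taken singly, replicates 2 and 3 had a median member deviation of -0.28 and -0.29 from the mean over the populations (log2 CPM). Over all tested genes it was -0.002 and -0.006. Without the chondroblasts, so that all libraries were of the same stage, 27 members were lower and none was higher, where 16.5% of all genes were lower and 16.9% higher. The summed endothelial and red blood cell markers given above were highest in these same S9-SCA-1+ libraries.

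Chondroblasts showed the opposite balance: 27 members were higher and 6 lower, where 65% of all genes passed, 35.7% higher and 29.4% lower. With scaling by library totals the split was 36 higher and 2 lower, and the median of all genes itself moved from 0.05 to 0.15. OCPs had 21 members higher and 1, Ift43, lower, where 28.5% of all genes passed, 16.6% higher and 11.9% lower. Medians were 0.21 in chondroblasts (all genes 0.05) and 0.16 in OCPs (all genes 0.02). Altogether 15 members were higher in both populations, 12 were higher in chondroblasts and not in OCPs, and 6 were higher in OCPs and not in chondroblasts. How many of all tested genes had each of these patterns was not counted, so nothing particular to the members is read from them. Since the S9-SCA-1+ cells are part of the mean in both comparisons, their low values enter these counts. Without the S9-SCA-1+ libraries 7 members were higher and 2 lower in OCPs (10.4% and 8.07% of all genes), and 16 were higher and 10 lower in chondroblasts (32.7% and 29.4% of all genes). The neural crest and glia markers were also highest in these 2 populations. The OCP count also rested on the library that stood apart, since 14 members passed without OCP replicate 2. Without the chondroblasts, so that all libraries were of the same stage, 24 members were higher and 2 lower in OCPs (23.9% and 19.9% of all genes).

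S9-JAG1+ LMPs had changes in both directions, with 15 members higher and 14 lower, where 49.9% of all genes passed, 24.2% higher and 25.7% lower. The median was -0.05. With scaling by library totals the split was 10 higher and 18 lower. Without the S9-SCA-1+ libraries, whose low values are part of the mean, it was 10 higher and 23 lower (27.5% and 29.2% of all genes). Ttc26, B9d1, Cep290, Nphp4 and Bbs12 no longer passed in that fit. Without the chondroblasts the split was 11 higher and 9 lower (16.3% and 18.1% of all genes). Hspb11, Ift43, Kif3a, Tctn3, B9d1, Tmem17, Cep290, Fuz and Kif7 were then lost. In the fit with all libraries, IFT-B, IFT-A, motor, transition zone and planar polarity genes were found in both directions. In S9-Pαhi LMPs 7 members changed and all of them rose, where 15.6% of all genes passed, 8.03% higher and 7.6% lower. These were Ift27, Ift57, Ttc26, Ift140, Wdr35, Tmem17 and Tmem231. Their number dropped to 1 without S9-Pαhi replicate 1, to 4 without replicate 2 and to 3 without replicate 3, and rose to 12 without OCP replicate 1 and to 11 without OCP replicate 2. Without the S9-SCA-1+ libraries 2 members were higher and 1 was lower in S9-Pαhi LMPs (11.3% and 10.4% of all genes). Ift57, Ttc26, Wdr35, Tmem17 and Tmem231 no longer passed in that fit. Without the chondroblasts 7 members were higher and none lower in S9-Pαhi LMPs (8.01% and 4.89% of all genes), and Ift27 was not among them.

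Few members kept the libraries of 1 of the other populations apart from all the rest. In S9-JAG1+ LMPs, Evc2 lay above all other libraries (6.72% of all tested genes did) and 6 members lay below (7.23% of all). These 6 were Cc2d2a, Dzip1, Ift140, Ift46, Ift52 and Tctn1. In chondroblasts, Bbs9, Kif3a, Ttbk2 and Ttc21b lay above (13.3% of all) and B9d2 and Evc2 below (11.6%). In OCPs, Ift140 and Ift81 lay above (1.24%) and no member lay below (1.04%), and in S9-Pαhi LMPs no member lay above (1.16%) or below (0.873%). With the limit of 1.2 on the log2 fold change added, Dzip1 was the only member to pass in S9-JAG1+ LMPs, where 10.6% of all genes did. No member passed that limit in S9-Pαhi LMPs (3.84% of all), OCPs (5.01%), chondroblasts (12.7%) or S9-SCA-1+ cells (11.3%).

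**Figure D3:**
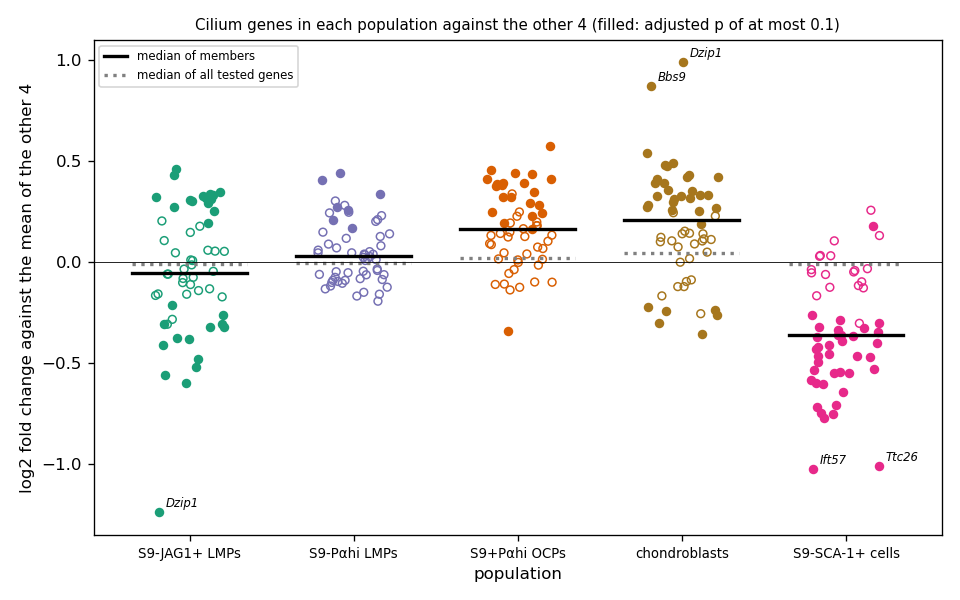
Log2 fold change of each of the 56 cilium genes in each population against the mean of the other 4; each point is a gene, filled points passed an adjusted p of 0.1, black lines are the medians of the 56 genes and dotted grey lines the medians of all tested genes. The points of the S9-SCA-1+ cells lie mostly below 0 (49 of 56, median -0.36), those of OCPs (45 of 56) and chondroblasts (43 of 56) mostly above.

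Of the 13 IFT-B subunits, 7 were lower in S9-SCA-1+ cells and none was higher, while 6 were higher and none lower in OCPs, and 7 were higher and 2, Ift27 and Traf3ip1, lower in chondroblasts. The 7 higher in chondroblasts became 4 without chondroblast replicate 2. Without the S9-SCA-1+ libraries 1 was higher in OCPs and 4 were in chondroblasts, and with library totals 11 were higher and none lower in chondroblasts. The steepest changes were in Ift57 and Ttc26. Ift57 (chr16:49699294-49765126) was at 22.2, 23.2 and 24.6 CPM in the S9-JAG1+ LMPs, 20.2, 22.1 and 20.6 in the S9-Pαhi LMPs, 18.7, 16.98 and 16.8 in OCPs, 22.2, 22.2 and 21.3 in chondroblasts, and 9.62 and 10.8 in S9-SCA-1+ cells. The S9-SCA-1+ libraries had less than any other library, and among the rest the OCPs were lowest. The log2 fold change of Ift57 against the other 4 was -1.03 ± 0.09 (SE, edgeR adjusted p = 7.88e-07) in S9-SCA-1+ cells and 0.46 ± 0.07 (SE, edgeR adjusted p = 0.000102) in S9-JAG1+ LMPs. Ttc26 (chr6:38381464-38427647), also known as Ift56, was at 28.2, 25.9 and 26.04 CPM in the S9-JAG1+ LMPs, 25.6, 28.4 and 26.9 in the S9-Pαhi LMPs, 27.3, 30.2 and 29.7 in OCPs, 26.5, 26.8 and 30.4 in chondroblasts, and 13.3 and 14.1 in S9-SCA-1+ cells. Its values in the 12 other libraries lay close together, between 25.6 and 30.4 CPM, and both S9-SCA-1+ libraries were far below that band. The log2 fold change of Ttc26 in S9-SCA-1+ cells was -1.01 ± 0.09 (SE, edgeR adjusted p = 7.07e-07). A stretch with an X-box match from the promoter of each of these genes is printed above.

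Ift80, whose loss causes a skeletal dysplasia with a narrow chest, was at 50.7, 48.2 and 54.9 CPM in the S9-JAG1+ LMPs, 50.6, 57.1 and 53.5 in the S9-Pαhi LMPs, 57.7, 72.7 and 55.4 in OCPs, 65.3, 69.7 and 71.9 in chondroblasts, and 33.9 and 34.7 in S9-SCA-1+ cells. Its S9-SCA-1+ values were again below all others, with a log2 fold change of -0.77 ± 0.10 (SE, edgeR adjusted p = 3.39e-05), and it was higher in chondroblasts with a log2 fold change of 0.49 ± 0.08 (SE, edgeR adjusted p = 0.000114). Ift81, which binds tubulin together with Ift74, was at 41.1, 50.96 and 47.01 CPM in the S9-JAG1+ LMPs, 48.5, 52.99 and 48.3 in the S9-Pαhi LMPs, 56.1, 74.2 and 55.9 in OCPs, 52.3, 52.6 and 52.4 in chondroblasts, and 35.1 and 36.4 in S9-SCA-1+ cells. The OCP libraries lay above all others, and the log2 fold change was 0.44 ± 0.09 (SE, edgeR adjusted p = 0.00204) in OCPs and -0.55 ± 0.11 (SE, edgeR adjusted p = 0.00108) in S9-SCA-1+ cells. Ift88 was at 23.6, 26.8 and 25.8 CPM in the S9-JAG1+ LMPs, 22.3, 26.9 and 22.1 in the S9-Pαhi LMPs, 28.6, 41.99 and 28.5 in OCPs, 29.4, 30.3 and 32.7 in chondroblasts, and 20.5 and 22.2 in S9-SCA-1+ cells. OCP replicate 2 was the highest library for Ift88 and for Ift74, where it reached 117 CPM against 72.7 and 78.02 in the other OCP libraries. Against the S9-Pαhi LMPs Ift88 was higher in OCPs with a log2 fold change of 0.47 ± 0.14 (SE, edgeR adjusted p = 0.0395), the largest change of a member between those populations, which did not pass without OCP replicate 2 or without S9-Pαhi replicate 1 or 3.

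The other IFT-B subunits moved less, and some moved the other way. Traf3ip1 (Ift54) was higher in S9-JAG1+ LMPs with a log2 fold change of 0.30 ± 0.07 (SE, edgeR adjusted p = 0.00282) and lower in chondroblasts with a log2 fold change of -0.24 ± 0.07 (SE, edgeR adjusted p = 0.00960), and the latter did not pass with library totals. Ift46 and Ift52, neighbours in the core of the complex, were lower in every S9-JAG1+ library than in any other library; their log2 fold changes there were -0.31 ± 0.06 (SE, edgeR adjusted p = 0.00170) and -0.31 ± 0.06 (SE, edgeR adjusted p = 0.000762). Ift27 and Hspb11 (Ift25) form a pair that links the train to the BBSome. Ift27 was higher in S9-Pαhi LMPs with a log2 fold change of 0.34 ± 0.10 (SE, edgeR adjusted p = 0.0509), and Hspb11 was lower in S9-JAG1+ LMPs with a log2 fold change of -0.38 ± 0.13 (SE, edgeR adjusted p = 0.0355). Neither passed in every fit that left out a library: Ift27 was lost without S9-Pαhi replicate 1 or 3, and Hspb11 without S9-JAG1+ replicate 1 or 2. Ift20 was at 22.3, 23.8 and 21.6 CPM in the S9-JAG1+ LMPs, 22.4, 20.8 and 22.7 in the S9-Pαhi LMPs, 27.5, 26.5 and 23.9 in OCPs, 25.5, 25.3 and 25.2 in chondroblasts, and 23.1 and 25.8 in S9-SCA-1+ cells, and none of its differences from the mean of the other 4 passed the test.

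In the IFT-A complex 3 of 6 subunits were lower in S9-SCA-1+ cells, and the largest change was that of Ift140 in S9-JAG1+ LMPs. Ift140 (chr17:25016083-25099499), a core subunit, was at 42, 43.3 and 41.1 CPM in the S9-JAG1+ LMPs, 66.9, 66.4 and 60.3 in the S9-Pαhi LMPs, 73.2, 72.7 and 71.2 in OCPs, 59.7, 62.6 and 65.2 in chondroblasts, and 55.4 and 58.7 in S9-SCA-1+ cells. All S9-JAG1+ libraries were below, and all OCP libraries above, every other library. The log2 fold change was -0.60 ± 0.06 (SE, edgeR adjusted p = 2.43e-06) in S9-JAG1+ LMPs and 0.37 ± 0.06 (SE, edgeR adjusted p = 0.000257) in OCPs, and OCPs exceeded S9-JAG1+ LMPs with a log2 fold change of 0.78 ± 0.07 (SE, edgeR adjusted p = 1.37e-06). In contrast to most members, the S9-SCA-1+ cells were not the lowest population.

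Wdr35 (Ift121) was at 48.4, 53.01 and 51.1 CPM in the S9-JAG1+ LMPs, 66.6, 64.6 and 55 in the S9-Pαhi LMPs, 59.1, 62.96 and 57.7 in OCPs, 69.7, 64.7 and 62.3 in chondroblasts, and 37.7 and 34.9 in S9-SCA-1+ cells. Both S9-SCA-1+ values were below all others (log2 fold change -0.71 ± 0.09 SE, edgeR adjusted p = 1.8e-05), and the gene was higher in S9-Pαhi LMPs, OCPs and chondroblasts. The rise in S9-Pαhi LMPs was lost without S9-Pαhi replicate 1 or 2, and that in OCPs in 5 of the 14 fits that left out a library. Neither of these rises passed without the S9-SCA-1+ libraries. Wdr19 (Ift144), a core subunit whose promoter stretch is printed above, was at 14.8, 16.6 and 15.5 CPM in the S9-JAG1+ LMPs, 17.6, 21.3 and 17.3 in the S9-Pαhi LMPs, 20.7, 29.8 and 22.5 in OCPs, 25.02, 26.1 and 28.5 in chondroblasts, and 15.9 and 15.2 in S9-SCA-1+ cells. The S9-JAG1+ and S9-SCA-1+ libraries overlapped at the low end and OCP replicate 2 and the chondroblasts were high. Against the other 4 the chondroblasts had a log2 fold change of 0.54 ± 0.10 (SE, edgeR adjusted p = 0.000380). Ttc21b (Ift139) was higher in chondroblasts than in any other library, with a log2 fold change of 0.42 ± 0.07 (SE, edgeR adjusted p = 0.000200) against the other 4 and with a log2 fold change of 0.42 ± 0.09 (SE, edgeR adjusted p = 0.00441) against OCPs, the largest change of a member between chondroblasts and OCPs. Ift43, the smallest subunit, was the member that fell in OCPs (log2 fold change -0.34 ± 0.14 SE, edgeR adjusted p = 0.0904); its values there were 19.1, 9.75 and 13.6 CPM and the low one was OCP replicate 2. This call passed in only 1 of the 14 fits that left out a library, the one without OCP replicate 1. The count of IFT-A genes higher in OCPs was 3, and 1 without OCP replicate 2 or without the S9-SCA-1+ libraries.

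All 3 motor subunits were lower in S9-SCA-1+ cells. Kif3a, a motor subunit of kinesin-2, was at 62.3, 65.1 and 60.9 CPM in the S9-JAG1+ LMPs, 68.2, 71.3 and 65.6 in the S9-Pαhi LMPs, 72.6, 88.2 and 71.9 in OCPs, 88.5, 97.3 and 90.9 in chondroblasts, and 58.8 and 56.8 in S9-SCA-1+ cells. The chondroblast libraries lay above all others (log2 fold change 0.48 ± 0.07 SE, edgeR adjusted p = 3.31e-05), and the S9-SCA-1+ libraries below all others (log2 fold change -0.37 ± 0.08 SE, edgeR adjusted p = 0.00309). Its partner Kif3b was also lower in S9-SCA-1+ cells (log2 fold change -0.41 ± 0.09 SE, edgeR adjusted p = 0.00234) and was higher in S9-JAG1+ LMPs (log2 fold change 0.29 ± 0.07 SE, edgeR adjusted p = 0.00498), where Kif3a was lower (log2 fold change -0.22 ± 0.07 SE, edgeR adjusted p = 0.0227). Dync2h1, the heavy chain of the dynein that drives return transport, had values of 46.3 and 50.8 CPM in S9-SCA-1+ cells and 49.2 to 84.4 CPM elsewhere, with overlap between the groups; its log2 fold change there was -0.46 ± 0.17 (SE, edgeR adjusted p = 0.0484). Without either S9-SCA-1+ library Dync2h1 no longer passed and 2 of the 3 motor genes were lower, and without S9-JAG1+ replicate 3 the call of Kif3a in S9-JAG1+ LMPs was lost.

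Of the 15 transition zone genes, 9 were lower in S9-SCA-1+ cells and none was higher, and 5 were higher and none lower in OCPs, and 5 were higher and 1, B9d2, lower in chondroblasts. The 9 became 5 without S9-SCA-1+ replicate 2 and 2 without replicate 3. The 5 in OCPs became 3 without S9-SCA-1+ replicate 3, and the 5 in chondroblasts became 2 without chondroblast replicate 2 or 3. Without the S9-SCA-1+ libraries 2 were higher in OCPs and 2 in chondroblasts. Tmem67, a membrane receptor of the MKS module that forms the gate, was at 20.5, 18.5 and 17.9 CPM in the S9-JAG1+ LMPs, 16.3, 19.5 and 19.8 in the S9-Pαhi LMPs, 20, 28.01 and 22.2 in OCPs, 23.9, 22.6 and 23.7 in chondroblasts, and 13.05 and 11.9 in S9-SCA-1+ cells. Both S9-SCA-1+ libraries were below all others, with a log2 fold change of -0.75 ± 0.12 (SE, edgeR adjusted p = 0.000254). Nphp4, of the neighbouring NPHP module, was at 12.2, 14.5 and 14.98 CPM in the S9-JAG1+ LMPs, 13.3, 11.55 and 12.3 in the S9-Pαhi LMPs, 11.97, 10.7 and 9.80 in OCPs, 15.3, 13.6 and 13.04 in chondroblasts, and 8.39 and 7.84 in S9-SCA-1+ cells. Its S9-SCA-1+ values were again the lowest (log2 fold change -0.65 ± 0.12 SE, edgeR adjusted p = 0.000626), followed by 2 of the OCP libraries, and Nphp4 was higher in chondroblasts than in OCPs with a log2 fold change of 0.37 ± 0.12 (SE, edgeR adjusted p = 0.0351). Tmem231, another membrane protein of the MKS module, was lower in S9-SCA-1+ cells with a log2 fold change of -0.60 ± 0.16 (SE, edgeR adjusted p = 0.00830) and had the largest rise of a member in S9-Pαhi LMPs, with a log2 fold change of 0.44 ± 0.13 (SE, edgeR adjusted p = 0.0361). The first of these was lost without S9-SCA-1+ replicate 3 and the second without S9-Pαhi replicate 1 or 3 or without the S9-SCA-1+ libraries. The rise of Nphp4 was lost without OCP replicate 3 or chondroblast replicate 1.

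In S9-JAG1+ LMPs 5 transition zone genes were lower and 4 higher. Cc2d2a, a scaffold of the MKS module, was at 21.2, 23.1 and 20.4 CPM in the S9-JAG1+ LMPs, 32.9, 38.6 and 27.4 in the S9-Pαhi LMPs, 27.8, 49.4 and 33.9 in OCPs, 33.6, 36.96 and 33.5 in chondroblasts, and 24.5 and 23.7 in S9-SCA-1+ cells. All S9-JAG1+ libraries lay below all others, and OCP replicate 2 was the highest. The log2 fold change of Cc2d2a was -0.56 ± 0.14 (SE, edgeR adjusted p = 0.00580) in S9-JAG1+ LMPs and -0.36 ± 0.16 (SE, edgeR adjusted p = 0.0978) in S9-SCA-1+ cells, and the latter was lost without either S9-SCA-1+ library and in 8 other fits that left out 1 library. Rpgrip1l, a scaffold at the base of the gate, was lower in the same cells with a log2 fold change of -0.48 ± 0.11 (SE, edgeR adjusted p = 0.00252), and OCPs exceeded them with a log2 fold change of 0.70 ± 0.13 (SE, edgeR adjusted p = 0.000759). Tctn1, whose exons overlap antisense genes over 25.5% of their bases, was lower there with a log2 fold change of -0.38 ± 0.10 (SE, edgeR adjusted p = 0.00942). Tctn3 (log2 fold change -0.26 ± 0.10 SE, edgeR adjusted p = 0.0446) and Tmem17 (log2 fold change -0.32 ± 0.14 SE, edgeR adjusted p = 0.0766) were also lower. Mks1, B9d1, Cep290 and Nphp4 went the other way in S9-JAG1+ LMPs, from 0.27 for Mks1 to 0.35 for Cep290 on the log2 scale. With library totals Mks1, B9d1 and Cep290 no longer passed there, and B9d1 and Cep290 were also lost in 9 and 8 of the 14 fits that left out a library. B9d1, Cep290 and Nphp4 were lost there without the S9-SCA-1+ libraries. Without S9-JAG1+ replicate 2 the split became 1 higher and 3 lower, and the calls of Tctn3, Tmem17 and Mks1 were among those lost. Without S9-JAG1+ replicate 1 that of Tctn3 was lost as well, and Tmem17 was lost in 5 of the 14 fits. B9d2 and Tmem216 were among the members with the narrowest range, and neither passed the joint test.

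All 6 members of the BBSome were lower in S9-SCA-1+ cells, with a median log2 fold change of -0.56, and 5 of 6 were higher in OCPs and 5 of 6 in chondroblasts. The 5 in OCPs became 2 to 4 when any 1 library was left out, 2 without OCP replicate 2 among them, and 1 without the S9-SCA-1+ libraries. The 5 in chondroblasts became 3 without chondroblast replicate 1 or 2, and 2 without the S9-SCA-1+ libraries. Without S9-SCA-1+ replicate 2, 3 of 6 were lower in the remaining S9-SCA-1+ library, and without replicate 3, 5 of 6 were. Bbs9 (chr9:22475559-22888283), a core subunit, was at 12.9, 15.9 and 18.5 CPM in the S9-JAG1+ LMPs, 19.8, 21.5 and 18.7 in the S9-Pαhi LMPs, 26.7, 26.5 and 28.1 in OCPs, 32.96, 32.5 and 37.1 in chondroblasts, and 12.7 and 15.5 in S9-SCA-1+ cells. The chondroblasts were above all other libraries, the OCPs were next without overlap, and the S9-SCA-1+ and S9-JAG1+ libraries overlapped at the low end. The log2 fold change of Bbs9 was 0.87 ± 0.09 (SE, edgeR adjusted p = 2.82e-06) in chondroblasts, 0.46 ± 0.10 (SE, edgeR adjusted p = 0.00353) in OCPs, -0.52 ± 0.10 (SE, edgeR adjusted p = 0.00102) in S9-JAG1+ LMPs and -0.72 ± 0.12 (SE, edgeR adjusted p = 0.000364) in S9-SCA-1+ cells.

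Bbs9 was also higher step by step, in S9-Pαhi against S9-JAG1+ LMPs with a log2 fold change of 0.34 ± 0.13 (SE, edgeR adjusted p = 0.0660), in OCPs against S9-Pαhi LMPs with a log2 fold change of 0.44 ± 0.12 (SE, edgeR adjusted p = 0.0323) and in chondroblasts against OCPs with a log2 fold change of 0.33 ± 0.12 (SE, edgeR adjusted p = 0.0570). It was the only member that passed in all 3 of these comparisons. The step to chondroblasts was lost without any 1 of the 6 libraries compared, that between the LMP populations without S9-Pαhi replicate 1 or 2 or S9-JAG1+ replicate 1 or 2, and that to OCPs without OCP replicate 3 or S9-Pαhi replicate 3. Bbs2 was at 11.2, 14.3 and 13.6 CPM in the S9-JAG1+ LMPs, 14.8, 15.3 and 14.3 in the S9-Pαhi LMPs, 13.4, 24.2 and 16.3 in OCPs, 21.96, 15.8 and 16.5 in chondroblasts, and 7.21 and 11.6 in S9-SCA-1+ cells. The S9-SCA-1+ libraries differed from each other, and the higher of them overlapped with the lowest S9-JAG1+ library; the log2 fold change was -0.75 ± 0.21 (SE, edgeR adjusted p = 0.0123). Bbs4 was at 16.4, 19.4 and 16.1 CPM in the S9-JAG1+ LMPs, 18.6, 19.8 and 16.5 in the S9-Pαhi LMPs, 18.8, 27.96 and 20.98 in OCPs, 21.9, 24.1 and 27.6 in chondroblasts, and 13.7 and 13.6 in S9-SCA-1+ cells. Its S9-SCA-1+ values were the lowest of all, with a log2 fold change of -0.58 ± 0.14 (SE, edgeR adjusted p = 0.00456). Bbs1, the subunit that binds ARL6, was lower in S9-SCA-1+ cells with a log2 fold change of -0.53 ± 0.12 (SE, edgeR adjusted p = 0.00265), and the log2 fold changes of Bbs5 and Bbs7 were -0.47 and -0.53. Without S9-SCA-1+ replicate 2 the calls of Bbs2, Bbs5 and Bbs7 were lost, and without replicate 3 that of Bbs1.

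The proteins that assemble or recruit the BBSome moved less. Of the chaperonin-like genes, Bbs12 was lower in S9-SCA-1+ cells with a log2 fold change of -0.33 ± 0.13 (SE, edgeR adjusted p = 0.0568), whereas no difference of Bbs10 passed the test. Arl6 (Bbs3), the GTPase that brings the BBSome to the membrane, was lower in S9-SCA-1+ cells with a log2 fold change of -0.32 ± 0.10 (SE, edgeR adjusted p = 0.0223) and higher in S9-JAG1+ LMPs with a log2 fold change of 0.31 ± 0.08 (SE, edgeR adjusted p = 0.00935). Arl13b, the GTPase that activates ARL3, was lower in S9-SCA-1+ cells with a log2 fold change of -0.34 ± 0.12 (SE, edgeR adjusted p = 0.0385) and higher in chondroblasts with a log2 fold change of 0.31 ± 0.10 (SE, edgeR adjusted p = 0.0132). Arl3 itself was at 58.6, 51.9 and 51.1 CPM in the S9-JAG1+ LMPs, 54.9, 54.04 and 61.9 in the S9-Pαhi LMPs, 58.3, 31.2 and 48.2 in OCPs, 41.5, 41.4 and 39.3 in chondroblasts, and 52.3 and 53 in S9-SCA-1+ cells. It passed only in chondroblasts, where it was lower with a log2 fold change of -0.36 ± 0.13 (SE, edgeR adjusted p = 0.0295), and that direction turned when the trend with exon length was removed from each library. OCP replicate 2 had the lowest value of all. In S9-SCA-1+ cells Bbs12 and Arl6 did not pass without either library and Arl13b without replicate 2, and the rise of Arl13b in chondroblasts was lost without chondroblast replicate 2.

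The hedgehog-related members included the strongest change of the whole set. EVC and EVC2 form a complex near the cilium base that binds SMO and is mutated in Ellis-van Creveld syndrome, and their genes had different patterns. Evc2 was at 58.9, 67.1 and 63.1 CPM in the S9-JAG1+ LMPs, 52.3, 49.8 and 46.2 in the S9-Pαhi LMPs, 48.03, 49.8 and 50.9 in OCPs, 45.2, 44.4 and 43.4 in chondroblasts, and 57.8 and 57.8 in S9-SCA-1+ cells. All S9-JAG1+ libraries were above, and all chondroblast libraries below, every other library, with log2 fold changes of 0.33 ± 0.06 (SE, edgeR adjusted p = 0.000421) and -0.30 ± 0.06 (SE, edgeR adjusted p = 0.000766). Evc was at 55.2, 69.2 and 57.4 CPM in the S9-JAG1+ LMPs, 60.3, 59.01 and 53.1 in the S9-Pαhi LMPs, 49.4, 80.4 and 56.5 in OCPs, 67.1, 70.97 and 62.5 in chondroblasts, and 42.95 and 41.4 in S9-SCA-1+ cells. Its S9-SCA-1+ libraries were below all others (log2 fold change -0.55 ± 0.14 SE, edgeR adjusted p = 0.00777), where Evc2 had a log2 fold change of 0.18 ± 0.07 (SE, edgeR adjusted p = 0.0577). That rise of Evc2 did not pass with library totals, with no filter on low counts, without either S9-SCA-1+ library or without the chondroblasts.

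Dzip1 (chr14:118875517-118925537), which encodes a zinc finger protein of the cilium base needed for cilium assembly and GLI regulation, was at 32.2, 35.8 and 33.1 CPM in the S9-JAG1+ LMPs, 79.9, 78.5 and 60.03 in the S9-Pαhi LMPs, 70.7, 121 and 85.5 in OCPs, 117, 122 and 109 in chondroblasts, and 52.4 and 51.2 in S9-SCA-1+ cells. The S9-JAG1+ libraries were below all others, the S9-SCA-1+ libraries came next, and the chondroblasts and OCP replicate 2 were highest. Its log2 fold change was -1.24 ± 0.14 (SE, edgeR adjusted p = 7.61e-06) in S9-JAG1+ LMPs and 0.99 ± 0.12 (SE, edgeR adjusted p = 8.5e-06) in chondroblasts. OCPs exceeded S9-JAG1+ LMPs with a log2 fold change of 1.45 ± 0.16 (SE, edgeR adjusted p = 8.25e-06), and S9-Pαhi LMPs exceeded them with a log2 fold change of 1.11 ± 0.16 (SE, edgeR adjusted p = 0.000187). An antisense gene overlaps 28.4% of the exon bases of Dzip1, and whether the counting used strand is not stated. Kif7, the kinesin that organizes the cilium tip and holds GLI proteins there, was higher in S9-JAG1+ LMPs with a log2 fold change of 0.31 ± 0.11 (SE, edgeR adjusted p = 0.0340) and lower in chondroblasts with a log2 fold change of -0.24 ± 0.11 (SE, edgeR adjusted p = 0.0872); antisense genes cover 20.3% of its exon bases. The first call of Kif7 was lost without S9-JAG1+ replicate 2 or 3. The second was lost with library totals and without chondroblast replicate 1 or 3, S9-Pαhi replicate 1 or 2, or S9-SCA-1+ replicate 2. Ttbk2, a kinase that starts cilium growth, was higher in chondroblasts than in any other library (log2 fold change 0.41 ± 0.08 SE, edgeR adjusted p = 0.000804) and lower in S9-SCA-1+ cells than in any other library (log2 fold change -0.50 ± 0.11 SE, edgeR adjusted p = 0.00194); it shares 29.9% of its exon bases with Cdan1 on the same strand.

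All 3 planar polarity effectors, which help recruit IFT proteins to the base, were lower in S9-SCA-1+ cells, and 1 of 3 was without S9-SCA-1+ replicate 2, 2 of 3 without replicate 3 and 1 of 3 without the chondroblasts. Fuz was at 14.6, 16.5 and 13.6 CPM in the S9-JAG1+ LMPs, 18.9, 16.4 and 15.2 in the S9-Pαhi LMPs, 21.2, 25.2 and 21.6 in OCPs, 21.7, 23.6 and 22.2 in chondroblasts, and 14.4 and 13.7 in S9-SCA-1+ cells. The OCPs and chondroblasts were above all LMP and S9-SCA-1+ libraries, and Fuz was higher in OCPs with a log2 fold change of 0.43 ± 0.09 (SE, edgeR adjusted p = 0.00229); antisense genes overlap 38.5% of its exon bases. Intu, whose promoter stretch is printed above, was higher in S9-JAG1+ LMPs with a log2 fold change of 0.33 ± 0.09 (SE, edgeR adjusted p = 0.0113) and lower in S9-SCA-1+ cells with a log2 fold change of -0.29 ± 0.11 (SE, edgeR adjusted p = 0.0595). Wdpcp, at 3.11 to 6.87 CPM, was lower in S9-SCA-1+ cells with a log2 fold change of -0.40 ± 0.18 (SE, edgeR adjusted p = 0.0886), with overlap between the libraries. In S9-SCA-1+ cells the call of Intu was lost without either library, and that of Wdpcp in 8 of the 14 fits that left out 1 library.

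**Figure D4:**
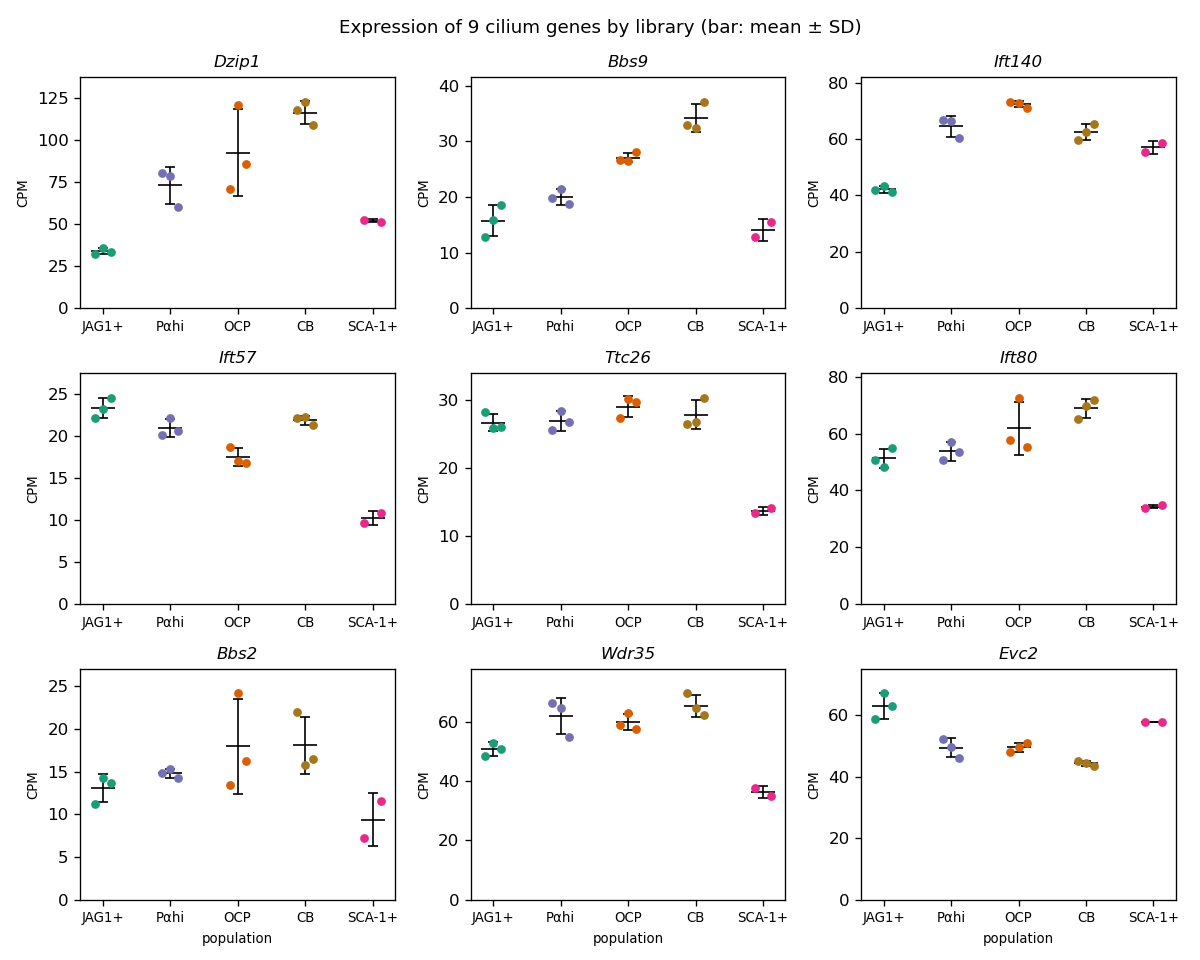
CPM of 9 cilium genes in each library (points) with the mean ± SD of each population (bars; n = 3, and n = 2 for the S9-SCA-1+ cells). Ift57, Ttc26, Ift80 and Wdr35 have their S9-SCA-1+ points below all others, Dzip1 and Ift140 their S9-JAG1+ points, and Bbs9 rises from 12.9 CPM in the lowest S9-JAG1+ library to 37.1 CPM in the highest chondroblast library.

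Set in the order S9-JAG1+ LMPs, S9-Pαhi LMPs, OCPs and chondroblasts, the neighbours differed in 16, 9 and 9 of 56 members. S9-Pαhi against S9-JAG1+ LMPs had 12 members higher and 4 lower, where 28.1% of all genes passed, 15.2% higher and 12.8% lower. Dzip1, Cc2d2a (log2 fold change 0.62 ± 0.17 SE, edgeR adjusted p = 0.0197), Ift140 (log2 fold change 0.62 ± 0.07 SE, edgeR adjusted p = 2.63e-05) and Tmem17 (log2 fold change 0.58 ± 0.17 SE, edgeR adjusted p = 0.0251) changed most. OCPs against S9-Pαhi LMPs had 8 higher and 1 lower, where 20.1% of all genes passed, 11.8% higher and 8.35% lower, and this count ranged from 1 to 22 when single libraries were left out. Chondroblasts against OCPs had 5 higher and 4 lower, where 34.8% of all genes passed, 18.3% higher and 16.5% lower, and Ift27 (log2 fold change -0.37 ± 0.13 SE, edgeR adjusted p = 0.0540) and B9d2 (log2 fold change -0.36 ± 0.12 SE, edgeR adjusted p = 0.0340) were among those lower, neither of which passed once the trend with exon length was removed. Ift27 was also lost without OCP replicate 1 or 3 or chondroblast replicate 1 or 2, and B9d2 without chondroblast replicate 2. In S9-Pαhi against S9-JAG1+ LMPs, Tmem17 was lost without S9-Pαhi replicate 3 or S9-JAG1+ replicate 2. OCPs against S9-JAG1+ LMPs, across the whole early series, had 23 higher and 6 lower, where 47.7% of all genes passed, 25.8% higher and 21.9% lower. With the limit of 1.2 on the log2 fold change added, Dzip1 passed between OCPs and S9-JAG1+ LMPs (12.5% of all genes did), and no member passed between S9-Pαhi and S9-JAG1+ LMPs (7%), between OCPs and S9-Pαhi LMPs (4.84%) or between chondroblasts and OCPs (7.77%). These comparisons share populations with each other.

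Other cilium genes, which are not members, were counted in the same way. Of 16 further transport genes, 9 were lower in S9-SCA-1+ cells and none was higher, with a median of -0.35. Among them Ttc8 (Bbs8), a further BBSome subunit, was lower with a log2 fold change of -0.81 ± 0.10 (SE, edgeR adjusted p = 1.44e-05), and Kifap3, which encodes the cargo-binding subunit of kinesin-2, was lower with a log2 fold change of -0.58 ± 0.07 (SE, edgeR adjusted p = 2.36e-05). Of 26 further transition zone and basal body genes, 13 were lower and 1, Cep41, was higher, with a median of -0.37. Of the RFX factors and Foxj1, 6 of 8 genes passed the filter and 4 of them were lower in S9-SCA-1+ cells. Rfx2 was at 7.54, 10.2 and 8.52 CPM in the S9-JAG1+ LMPs, 12.97, 10.98 and 11.01 in the S9-Pαhi LMPs, 10.9, 9.80 and 11.8 in OCPs, 10.1, 13.2 and 13.04 in chondroblasts, and 5.42 and 4.31 in S9-SCA-1+ cells, and both S9-SCA-1+ libraries were below all others (log2 fold change -1.14 ± 0.16 SE, edgeR adjusted p = 5.95e-05). Rfx3 was lower there with a log2 fold change of -0.58 ± 0.14 (SE, edgeR adjusted p = 0.00509). Of the members with a full X-box match, 11 of 14 were lower in S9-SCA-1+ cells (median -0.48), and of those with an entry and no match 22 of 38 were (median -0.33), a difference that was not tested. Of 14 genes of motile cilia 3 did not pass the filter on low counts, namely the dynein gene Dnah5, the radial spoke gene Rsph4a and the central pair gene Spag6. In S9-SCA-1+ cells 2 of the others were higher and 3 lower.

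The cell cycle moved with some of these comparisons. Of 20 cell cycle genes, 18 were higher in S9-JAG1+ LMPs and none was lower, and 19 were lower in chondroblasts and none was higher. In S9-SCA-1+ cells 8 were higher and 1 lower, in S9-Pαhi LMPs 4 were higher and none lower, and in OCPs none was higher and 1 lower. Their summed level was 6814 to 7079 CPM in the S9-JAG1+ LMPs, 5935 to 6541 CPM in the S9-Pαhi LMPs, 5257 to 5984 CPM in OCPs, 5978 to 6073 CPM in the S9-SCA-1+ cells and 4239 to 4622 CPM in the chondroblasts. Of 12 genes that disassemble or cap the cilium, 8 were higher and 1 lower in S9-JAG1+ LMPs, and 1 was higher and 7 lower in chondroblasts. In S9-SCA-1+ cells 2 were higher and 1 lower. Of all tested genes, 24.2% were higher and 25.7% lower in S9-JAG1+ LMPs, 35.7% and 29.4% in chondroblasts, and 23.5% and 22.8% in S9-SCA-1+ cells. The part of the cell cycle in the members' values was not tested. All 12 hedgehog pathway genes passed the joint test. Of these, 4 were higher and 5 lower in S9-JAG1+ LMPs, 4 higher and 2 lower in S9-Pαhi LMPs, 5 higher and 1 lower in OCPs, 6 higher and 4 lower in chondroblasts, and 3 higher and 7 lower in S9-SCA-1+ cells. Ptch1, the hedgehog receptor and a target of the pathway, was at 204, 209 and 245 CPM in the S9-JAG1+ LMPs, 104, 97.9 and 88.9 in the S9-Pαhi LMPs, 84.3, 81.98 and 103 in OCPs, 119, 136 and 154 in chondroblasts, and 64.4 and 61.4 in S9-SCA-1+ cells. It was highest in S9-JAG1+ LMPs and lowest in S9-SCA-1+ cells, without overlap with the other libraries at either end. Hhip, which encodes a hedgehog-binding protein and was chosen after its values were seen, went the other way in both, with log2 fold changes of -1.86 ± 0.23 (SE, edgeR adjusted p = 2.27e-05) in S9-JAG1+ LMPs and 0.70 ± 0.22 (SE, edgeR adjusted p = 0.0191) in S9-SCA-1+ cells.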

How the data were processed

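Poly(A)+ RNA of 14 libraries from sorted forelimb bud cells was sequenced by the authors as single reads, aligned to mm10 with STAR and counted with QuasR as reads that start in exons of RefSeq mRNAs. Per the study's methods, 1 hit was kept for a read that maps to several places. Use of strand in the counting is not given in the sources used here. The deposited table holds raw counts per gene for each library and an exon length per gene. It holds no comparison of the authors' own.

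Entrez identifiers were matched to symbols through the RefSeq table of GRCm38.p6 (24374 of 24454 matched). Counts were scaled by TMM and tested with edgeR's quasi-likelihood test (edgeR 4.0.16, limma 3.58.1, R 4.3.3), with 1 mean per population, after filtering on low counts (filterByExpr, 15125 genes kept). P-values were adjusted by Benjamini-Hochberg over all tested genes, and a gene changed where the adjusted p was at most 0.1. The scripts were tested on simulated data. CPM are TMM-scaled, log2 CPM use a prior count of 2, and CPM per kilobase use the deposited exon length. Library totals ran from 20316583 to 29162751 counts. Promoters were read from RefSeq, and exon overlaps from GENCODE vM21, both on GRCm38.

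The members and the gene lists were chosen with earlier results of these data known. Genes named with values were those past the log2 limit of 1.2, the 4 largest changes in each comparison, the 6 widest and 4 narrowest ranges, the 3 highest and 3 lowest levels, up to 3 genes per class by the joint test, and a few per other list; Traf3ip1, Ift46, Hspb11, Ift43, Tctn1, Tctn3, Mks1, B9d1, Cep290, Bbs5, Bbs7, Ttc8, Kifap3, Cep41, Dnah5, Rsph4a, Spag6, Ptch1, Hhip, Sox10, Kdr and Tek were named after their values were seen. Other scalings, filters, a DESeq2 (1.42.0) test, other thresholds, a replicate block, removal of the trend with exon length and the omission of libraries or populations were tried. The fits without chondroblasts, the counts per class without single libraries, and the other scalings of the count of members below all others were added after seeing the data. Replicate numbers did not pair the samples. No replicate pair of a population differed by less than the sampling noise, since chi-square per degree of freedom was at least 8.20.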

Additional observations from a re-analysis of the deposited data

How the results depend on the processing

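The counts of changed members depended most on the size limit and on single libraries. With the study's log2 limit of 1.2, members changed numbered 1 in S9-JAG1+ LMPs, 0 in S9-Pαhi LMPs, 0 in OCPs, 0 in chondroblasts and 0 in S9-SCA-1+ cells against the other 4, 0 between S9-Pαhi and S9-JAG1+ LMPs, 0 between OCPs and S9-Pαhi LMPs, 0 between chondroblasts and OCPs, 1 between OCPs and S9-JAG1+ LMPs and 2 in the joint test. In the joint test this limit was put on the distance between a gene's highest and lowest population. At an adjusted p of at most 0.05 the counts were 3 in S9-Pαhi LMPs, 13 in OCPs and 3 between OCPs and S9-Pαhi LMPs. Without the S9-SCA-1+ libraries they were 3 in S9-Pαhi LMPs and 9 in OCPs. With no filter on low counts, 5 passed between OCPs and S9-Pαhi LMPs. When the 2 populations compared were fitted alone, 1 passed between OCPs and S9-Pαhi LMPs, 3 between chondroblasts and OCPs and 19 between OCPs and S9-JAG1+ LMPs.

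With single libraries left out, the counts ran from 21 to 33 in S9-JAG1+ LMPs, 1 to 12 in S9-Pαhi LMPs, 14 to 26 in OCPs, 20 to 39 in chondroblasts and 21 to 40 in S9-SCA-1+ cells, from 9 to 24 between S9-Pαhi and S9-JAG1+ LMPs, 1 to 22 between OCPs and S9-Pαhi LMPs, 5 to 19 between chondroblasts and OCPs and 19 to 32 between OCPs and S9-JAG1+ LMPs, and from 41 to 53 in the joint test. The lowest chondroblast count (20) was without chondroblast replicate 2, and without it 5 passed against OCPs. Without OCP replicate 2, 19 passed between chondroblasts and OCPs and 2 between OCPs and S9-Pαhi LMPs. That last count was 22 without OCP replicate 1, 4 without OCP replicate 3, 4, 4 and 5 without chondroblast replicates 1, 2 and 3, 3 and 1 without S9-Pαhi replicates 1 and 3, and 5 and 4 without S9-JAG1+ replicates 2 and 3. Without S9-Pαhi replicate 1, 9 passed between the LMP populations, and without S9-JAG1+ replicate 1, 19 passed between OCPs and S9-JAG1+ LMPs.

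The 4 largest changes of each comparison gave 804 values under the alternatives, of which 761 passed in the same direction, 43 did not pass and 0 reversed. These changes were picked because they passed in the main fit, and the alternatives reuse its libraries. Their stability was therefore largely set in advance and does not describe the other calls, some of which were lost in most fits that left out a library. Scaling by library totals moved the share of higher among all called genes from 54.9% to 65.4% in chondroblasts and from 52.6% to 66.5% between chondroblasts and OCPs, where members split 6 higher and 2 lower. It left 37 members lower in S9-SCA-1+ cells. With the trend with exon length removed, 39 were lower there, and Dync2h1, Cep290, Intu, Cc2d2a and Ift172 no longer passed. The same setting turned the direction of Arl3, B9d2 and Ift27 in chondroblasts. The count of members with both S9-SCA-1+ libraries below all others was 19 with DESeq2 size factors and 20 with library totals. Replicate numbers did not pair the samples (4 of 26 same-number pairs correlated over 0.1, mean r 0.01, and 5 of 14 libraries were closest to their own number). Pairs with different numbers had a mean r of -0.007. The highest r between populations, 0.41, was that of OCP replicate 1 with S9-Pαhi replicate 3. Whether libraries with different numbers shared a pool of limb buds was not tested. With the replicate block 39 members changed in S9-SCA-1+ cells, 36 in chondroblasts, 22 in OCPs, 30 in S9-JAG1+ LMPs and 7 in S9-Pαhi LMPs.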
